A study of Mus musculus with 10 samples.

Results

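The 10 FGF genes described here are Fgf1, Fgf2, Fgf7, Fgf9, Fgf10, Fgf16, Fgf12, Fgf13, Fgfr1 and Fgfr2. They were taken by name, as 6 secreted ligands, 2 intracellular FGFs and 2 receptors, out of the 56748 gene identifiers that were counted in whole mouse hearts. All 10 were among the 15454 genes with enough reads to be tested. The hearts came from wild-type male C57BL/6 mice bought at 8 weeks of age, 5 in the training group and 5 in the sedentary group. The training mice rested for at least 2 weeks, were acclimatized to the treadmill for 1 week, and then ran by force for 8 weeks at 15 m/min for 120 minutes a day on 5 days a week. The sedentary mice were of the same age and did not run. The paper states that every animal, trained or sedentary, was scanned by PET/CT under isoflurane anesthesia at the end of its schedule. Each RNA sample held both atria and both ventricles of 1 heart, and the hour at which hearts were taken is not given in the sources used here.

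FGFs are signaling proteins that bind heparan sulfate on the cell surface and receptor tyrosine kinases, the FGFRs. A bound receptor phosphorylates the adaptor FRS2, which recruits GRB2, GAB1 and SOS and switches on the RAS-ERK cascade. The cascade induces ETS transcription factors of the ETV group as well as its own inhibitors, among them Sprouty proteins and the phosphatase DUSP6. In the heart, FGFs of the epicardium and endocardium drive the growth of embryonic myocytes, and FGF2 is known for its part in growth and protection of the adult myocardium. FGF12 and FGF13 resemble the ligands in sequence but are not secreted, and they bind the intracellular tail of voltage-gated sodium channels.

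The libraries held between 29461697 and 35945417 counts on genes in the training hearts and between 35196993 and 39431030 in the sedentary hearts. Levels are given as CPM, the count of a gene scaled to a common library size with TMM factors. TPM from RSEM, which are per length, are used only where levels of different genes are compared. Adjusted p are from the quasi-likelihood test of edgeR with the Benjamini-Hochberg correction over all genes tested, and SE is the standard error of a log2 fold change. Of all genes tested, 1084 (7.01%) passed a false discovery rate (FDR) below 0.1, 425 higher (2.75%) and 659 lower (4.26%) in the training hearts. Defining genes of atrial myocytes varied between hearts. Their summed level was 5161 to 7775 CPM in the training hearts and 2847 to 6973 CPM in the sedentary hearts, with sedentary hearts 2 and 5 lowest. All 7 of these atrial genes had a fitted log2 fold change above 0, training over sedentary. Their median was 0.50, beside 0.00026 over all genes tested. Cardiomyocyte genes were abundant throughout, with 10 genes summing to 81198 to 85949 CPM in the training and 84429 to 95892 CPM in the sedentary hearts. In RNA from a whole heart, fewer cells of a type and less RNA per cell cannot be told apart.

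None of the 10 FGF genes passed the FDR threshold in edgeR, beside 7.01% of all genes tested. Fgf7, Fgfr1 and Fgfr2 were the 3 with an unadjusted p below 0.05, which 20.0% of all genes (3087) reached, and their values were higher in the training hearts. The fitted log2 fold change, training over sedentary, was above 0 in 9 of the 10 genes and below 0 in Fgf1. It was above 0 in 7738 of all 15454 genes tested. Its median was 0.14 over the 10 genes and 0.00026 over all genes tested. In each of the 10 genes the training and sedentary hearts overlapped, whereas 5.06% of all genes (782) had groups that did not overlap. The call depended on the test, and the study's own test was DESeq2. DESeq2 on the same counts, which called 9.53% of all genes, 3.99% as higher and 5.54% as lower, placed Fgf7, Fgfr1 and Fgfr2 below its FDR of 0.1 with adjusted p between 0.0623 and 0.0649. Scaling by library totals alone called the same 3 genes and 8.85% of all genes in edgeR, with the median of all genes moved to 0.053. It also depended on single hearts. The edgeR test called Fgfr1 and Fgfr2 without training heart 1 (6.35% of all genes called) and Fgf7 and Fgfr1 without training heart 2 (8.02%). It called Fgf7, Fgfr2 and Fgf1 (lower) without sedentary heart 1 (9.58%). It called none of the 10 genes when any other single heart was left out.

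**Figure D1:**
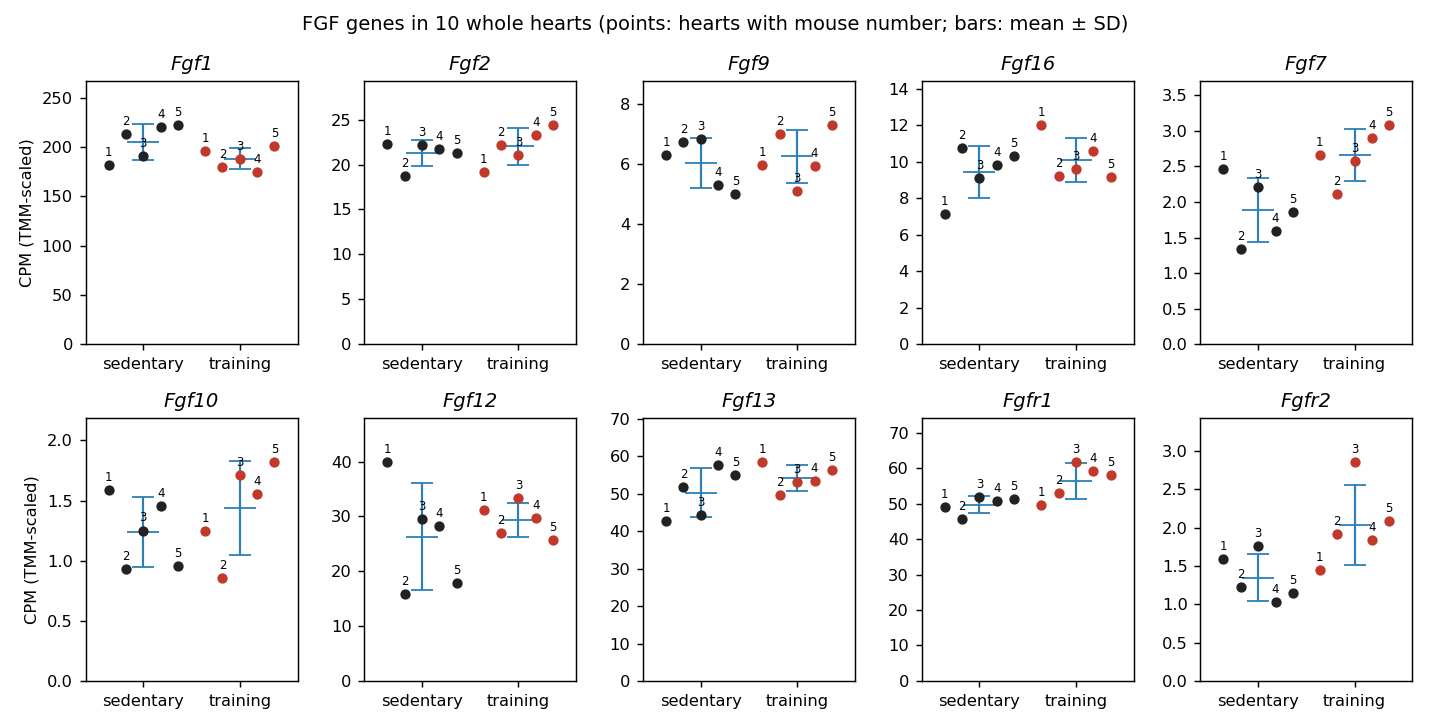
Level of each FGF gene in the 5 sedentary (black) and 5 training (red) hearts in TMM-scaled CPM on linear axes from 0, with the mouse number at each point and blue bars for the mean and SD. The groups overlap in all 10 panels, 4 of 5 training hearts lie above every sedentary heart for Fgf7, Fgfr1 and Fgfr2, and the sedentary hearts spread most widely for Fgf12.

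Levels per length spanned a wide range and fell into steps. Fgf1 was highest at a median of 63.9 TPM over the 10 hearts, and its lowest heart, at 58.7 TPM, was above the highest heart for any other family member. Fgf13 followed at 46.8 TPM, above Fgf12 in 10 of 10 hearts. Fgf12 (23.6 TPM) and Fgfr1 (15.1 TPM) had overlapping ranges, with Fgf12 higher in 9 of 10 hearts. Fgf16 (6.585 TPM) and Fgf2 (5.215 TPM) overlapped as well, with Fgf16 higher in 9 of 10 hearts. Fgf9 lay below both at 2.835 TPM. At the low end stood Fgf7 at 1.09 TPM, Fgfr2 at 0.795 TPM and Fgf10 at 0.34 TPM, and neighbours among these 3 had overlapping ranges.

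**Figure D2:**
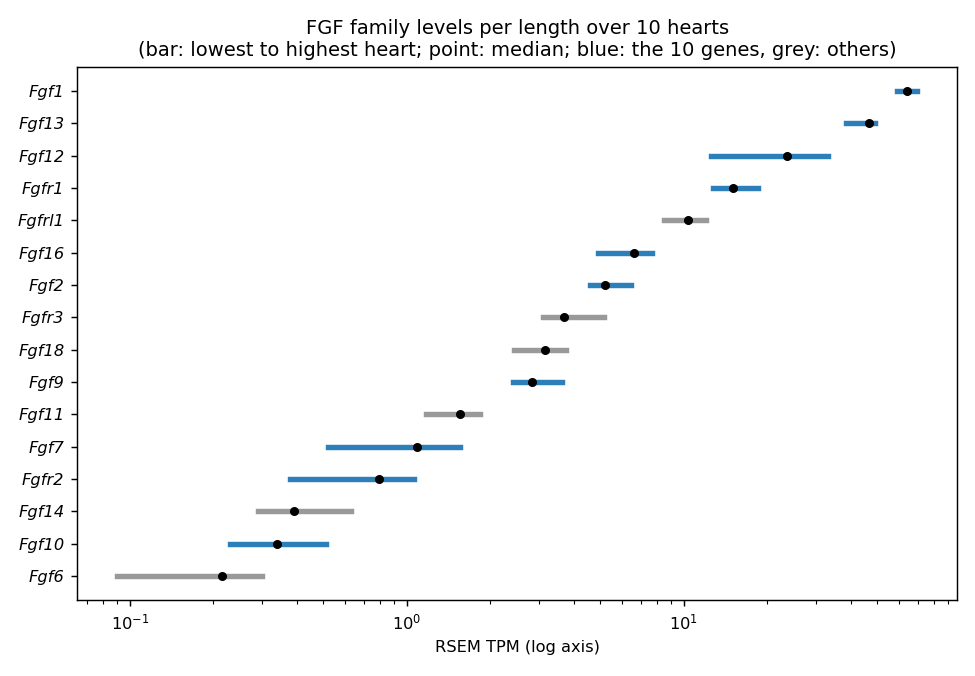
Levels per length of the 16 tested genes of the FGF family in RSEM TPM on a log axis, where each bar runs from the lowest to the highest of 10 hearts and the point is the median. Blue bars are the 10 FGF genes described here and grey bars the other 6; Fgf1 lies highest at 63.9 TPM and Fgf10 lowest of the blue bars at 0.34 TPM.

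Fgf1 made up most of the secreted ligand transcripts. Its share of the summed TPM of the 6 secreted genes was 76.8% to 82.7% in the 10 hearts. The share was 79.0% ± 1.44 (SD, n = 5) in training and 80.8% ± 1.81 (SD, n = 5) in sedentary hearts, a difference within the spread between hearts (exact two-sided permutation p = 0.151, where the smallest p possible is 0.00794). Among receptors, Fgfr1 held 72.8% to 81.6% of the summed TPM of Fgfr1, Fgfr2 and Fgfr3, with 77.9% ± 2.35 (SD, n = 5) in training and 76.2% ± 2.49 (SD, n = 5) in sedentary hearts (exact two-sided permutation p = 0.341).

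FGF1 is a ligand without a classical signal peptide that binds all FGFRs. Its gene (ENSMUSG00000036585, chromosome 18 of GRCm39, 38971717 to 39077186, minus strand) was at 195, 179.9, 188, 175 and 201 CPM in training hearts 1 to 5. In sedentary hearts 1 to 5 it was at 181.6, 213, 191, 219.7 and 222 CPM. All 5 training hearts lay below the sedentary mean, and 2 of them lay below every sedentary heart. The means were 188 ± 10.7 CPM (SD, n = 5) and 205 ± 18.2 CPM (SD, n = 5). On the log2 scale the fitted change was −0.13 (SE 0.061, 95% interval −0.26 to 0.0016, adjusted p = 0.254, edgeR). Without sedentary heart 1, the lowest of its group, the log2 fold change was −0.17 with an adjusted p of 0.0967 in the same test. With a mean of 6951 reads per heart, Fgf1 was the most deeply counted of the 10 genes.

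FGF2 also lacks a signal peptide and is known in the heart as a growth and survival factor. Its gene (ENSMUSG00000037225, chromosome 3, 37402473 to 37464257, plus strand) ranged from 19.2 to 24.4 CPM in training hearts, with a median of 22.1 CPM. In sedentary hearts it ranged from 18.8 to 22.3 CPM, with a median of 21.7 CPM. The fitted log2 change was 0.049 (SE 0.068, 95% interval −0.098 to 0.20, adjusted p = 0.746, edgeR), an interval from −6.57% to 14.5% of the sedentary level. The exons of Fgf2 share 3073 bases with Nudt6 on the opposite strand. They also share 255 bases with the noncoding gene Gm43439 on the same strand. Of the reads on either strand counted to Fgf2, 34.2% were on the opposite strand and were left out by the directional count, against 0.092% to 4.12% for the other 9 genes.

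FGF9 and FGF16 belong to 1 subfamily whose members signal in the developing heart. Fgf9 (ENSMUSG00000021974, chromosome 14, 58308004 to 58350316, plus strand) was at 5.11 to 7.30 CPM in training and 4.99 to 6.84 CPM in sedentary hearts. Fgf16 (ENSMUSG00000031230, chromosome X, 104807869 to 104818545, plus strand) was at 9.19 to 12.0 CPM in training and 7.15 to 10.8 CPM in sedentary hearts. The log2 fold changes were 0.052 for Fgf9 (SE 0.12) and 0.10 for Fgf16 (SE 0.11). Their adjusted p were 0.851 and 0.647 in the edgeR test. The 95% intervals reached from −0.20 to 0.30 for Fgf9 and from −0.13 to 0.34 for Fgf16. The direction of Fgf9 turned without training heart 5 (−0.0079) or without sedentary heart 5 (−0.0094).

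FGF7 and FGF10 are made by mesenchymal cells and signal to the epithelial splice form of FGFR2. Fgf7 (ENSMUSG00000027208, chromosome 2, 125876578 to 125934218, plus strand) was at 2.66, 2.12, 2.57, 2.89 and 3.08 CPM in training hearts 1 to 5. In sedentary hearts 1 to 5 it was at 2.46, 1.34, 2.21, 1.59 and 1.86 CPM. Training heart 2 was the only one of its group within the sedentary range, and 4 training hearts lay above every sedentary heart. The means were 2.67 ± 0.366 CPM (SD, n = 5) and 1.89 ± 0.451 CPM (SD, n = 5), a fitted difference of 39.7%. This is a log2 fold change of 0.48 (SE 0.16, 95% interval 0.13 to 0.83, adjusted p = 0.122, edgeR). The adjusted p was 0.0823 without training heart 2 and 0.0502 without sedentary heart 1, and between 0.143 and 0.225 without any other heart. The gene rests on 46 to 99 reads per heart.

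Fgf10 (ENSMUSG00000021732, chromosome 13, 118806327 to 118928672, plus strand) was the least abundant of the 10 genes per length. It was at 1.25, 0.859, 1.71, 1.56 and 1.82 CPM in training hearts 1 to 5 and at 1.59, 0.934, 1.25, 1.45 and 0.959 CPM in sedentary hearts 1 to 5. The highest and the lowest of the 10 hearts were both training hearts. The fitted log2 change was 0.21 (SE 0.22, 95% interval −0.25 to 0.67, adjusted p = 0.644, edgeR). The gene rests on 30 to 64 reads per heart, and the fitted difference lay within the spread between hearts.

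FGFR1 is the main FGF receptor of heart muscle and of cardiac fibroblasts. Fgfr1 (ENSMUSG00000031565, chromosome 8, 26003670 to 26066824, plus strand) was at 49.6, 53.0, 61.8, 59.2 and 58.2 CPM in training hearts 1 to 5. In sedentary hearts 1 to 5 it was at 48.9, 45.8, 51.9, 50.7 and 51.3 CPM. The sedentary hearts were close together, and 4 of 5 training hearts lay above all of them. The means were 56.4 ± 4.95 CPM (SD, n = 5) and 49.7 ± 2.47 CPM (SD, n = 5), a fitted difference of 13.3%. This is a log2 fold change of 0.18 (SE 0.060, 95% interval 0.053 to 0.31, adjusted p = 0.115, edgeR). The adjusted p was 0.0451 without training heart 1, the lowest of its group, and 0.0944 without training heart 2, and between 0.139 and 0.245 without any other heart.

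FGFR2 is the receptor of FGF7 and FGF10 in its epithelial splice form. Fgfr2 (ENSMUSG00000030849, chromosome 7, minus strand) was at 1.44, 1.92, 2.86, 1.84 and 2.09 CPM in training hearts 1 to 5. In sedentary hearts 1 to 5 it was at 1.59, 1.23, 1.76, 1.02 and 1.15 CPM. Training heart 3 was the highest of all, and 4 of 5 training hearts lay above every sedentary heart. The means were 2.03 ± 0.523 CPM (SD, n = 5) and 1.35 ± 0.310 CPM (SD, n = 5), a fitted difference of 50.1%. This is a log2 fold change of 0.59 (SE 0.20, 95% interval 0.16 to 1.01, adjusted p = 0.121, edgeR). The adjusted p was 0.0744 without training heart 1 and 0.0938 without sedentary heart 1. Without any other heart it lay between 0.112 and 0.274, the highest value being that without training heart 3. The mean count was only 59.7 reads per heart, and splice forms of the receptor were not counted apart. The GENCODE M39 model of Fgfr2 runs from 129763471 to 132725079 and shares 314 exonic bases with Ctbp2 on the same strand.

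**Figure D3:**
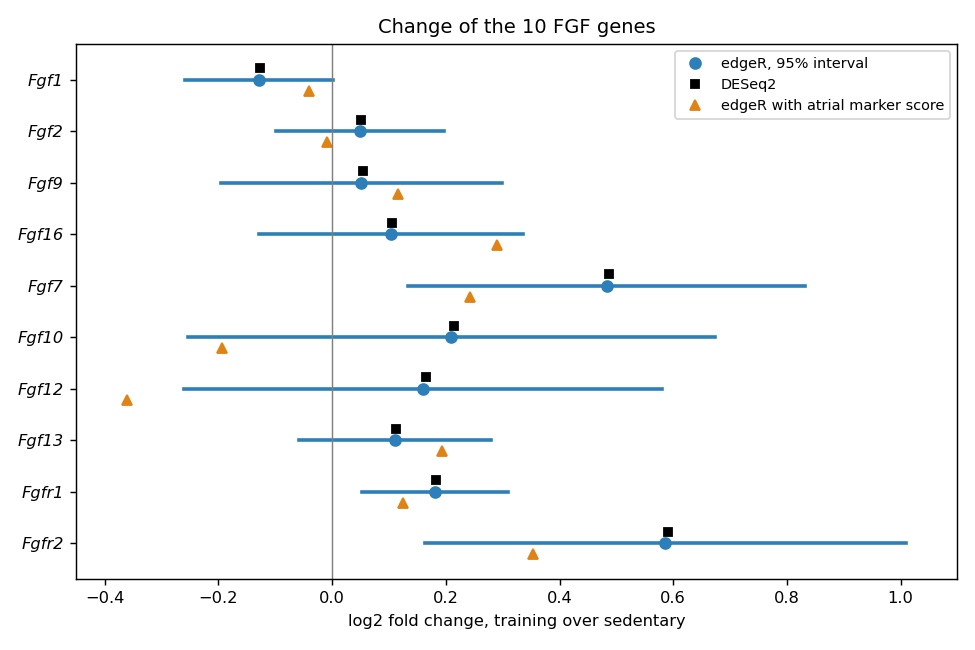
Log2 fold change of each FGF gene, training over sedentary, from edgeR (blue point with its 95% interval), from DESeq2 (black square) and from edgeR with a term for the atrial marker score (orange triangle). The intervals of Fgf7, Fgfr1 and Fgfr2 lie above 0, the DESeq2 values lie close to those of edgeR, and the covariate moves Fgf12 from 0.16 to −0.36.

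The stretches before the start sites of Fgf7, Fgfr1 and Fgfr2 are shown because these genes had the 3 smallest p values, and that of Fgf12 because its level followed the atrial genes described further on. Each is the 250 bases before the canonical start site of the GENCODE M39 annotation, read from GRCm39 on the strand of the gene, 5′ to 3′. Capitals mark matches, on either strand, to any of 4 short motifs. The GC box was searched as GGGCGG and found in 45.9% of 15393 such windows of tested genes. The TATA box, as TATAAA, was found in 8.01% of them. The CCAAT motif was found in 34.9%. The E-box, as CACGTG, was found in 7.42%. The Fgf7 window (chr2:125876328-125876577, plus strand) held 1 CCAAT motif and the Fgfr1 window (chr8:26008495-26008744, plus strand) 1 GC box. The Fgfr2 window (chr7:129868273-129868522, minus strand) held 1 E-box and the Fgf12 window (chr16:28265030-28265279, minus strand) 1 GC box. No motif was common to the windows of the 3 genes with the smallest p. The Fgf12 window was the richest of the 4 in G and C, at 76% against 43.6% for Fgf7, 56% for Fgfr1 and 46.4% for Fgfr2, and 97.2% of all windows had a lower content. Which start sites the hearts used was not measured.
Fgf7: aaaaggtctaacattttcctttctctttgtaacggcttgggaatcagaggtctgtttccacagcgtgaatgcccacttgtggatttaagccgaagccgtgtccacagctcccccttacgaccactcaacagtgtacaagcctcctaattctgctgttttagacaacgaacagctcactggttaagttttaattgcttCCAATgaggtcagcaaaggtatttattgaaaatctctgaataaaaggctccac
Fgfr1: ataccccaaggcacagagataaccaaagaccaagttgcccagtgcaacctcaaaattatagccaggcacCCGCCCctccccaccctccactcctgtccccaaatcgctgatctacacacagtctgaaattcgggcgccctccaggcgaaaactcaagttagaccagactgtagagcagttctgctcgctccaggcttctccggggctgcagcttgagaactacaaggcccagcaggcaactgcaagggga
Fgfr2: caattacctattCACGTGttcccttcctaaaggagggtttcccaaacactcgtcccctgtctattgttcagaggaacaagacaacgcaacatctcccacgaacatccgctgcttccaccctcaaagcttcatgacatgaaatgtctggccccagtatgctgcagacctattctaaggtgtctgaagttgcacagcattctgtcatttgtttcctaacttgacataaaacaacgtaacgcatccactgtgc
Fgf12: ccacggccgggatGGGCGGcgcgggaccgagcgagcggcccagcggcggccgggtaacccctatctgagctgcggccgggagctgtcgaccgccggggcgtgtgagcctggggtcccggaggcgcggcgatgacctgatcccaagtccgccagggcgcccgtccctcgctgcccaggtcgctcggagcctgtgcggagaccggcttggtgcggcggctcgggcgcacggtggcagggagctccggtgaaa

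FGF12 and FGF13 are fibroblast growth factor homologous factors of the myocyte, where they shape the inactivation and surface density of sodium channels. Fgf13 (ENSMUSG00000031137, chromosome X, 58106279 to 58613431, minus strand) was at 49.7 to 58.6 CPM in training and 42.9 to 57.7 CPM in sedentary hearts. The fitted log2 change was 0.11 (SE 0.078, 95% interval −0.058 to 0.28, adjusted p = 0.471, edgeR). Fgf12 (ENSMUSG00000022523, chromosome 16, 27975753 to 28571820, minus strand) was at 31.2, 27.1, 33.3, 29.8 and 25.7 CPM in training hearts 1 to 5. In sedentary hearts 1 to 5 it was at 40.0, 15.9, 29.4, 28.3 and 17.8 CPM. The sedentary hearts held both the highest and the lowest values, and every training heart lay between them. The coefficient of variation was 37.2% in the sedentary and 10.5% in the training hearts, and that of the sedentary hearts was the widest of the 10 genes. The fitted log2 change was 0.16 (SE 0.20, 95% interval −0.26 to 0.58, adjusted p = 0.702, edgeR). Fgf12 made up 22.6% to 46.3% of the summed TPM of Fgf12 and Fgf13, with 34.0% ± 2.40 (SD, n = 5) in training and 32.2% ± 9.98 (SD, n = 5) in sedentary hearts (exact two-sided permutation p = 0.770).

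Fgf12 followed the defining genes of atrial myocytes from heart to heart. An atrial marker score was taken as the mean of centred log2 CPM over Nppa, Myl4, Myl7, Sln, Bmp10, Mybphl and Dkk3. The score was 0.054 to 0.69 in the training hearts and −1.01 to 0.36 in the sedentary hearts. Sedentary hearts 2 (−1.01) and 5 (−0.83), which had the lowest scores, also had the lowest Fgf12. Over the 10 hearts, the correlation of log2 Fgf12 CPM with the score was Pearson's r = 0.904 (permutation p = 0.0037, adjusted p = 0.0370 over the 10 genes) and Spearman's rho = 0.818 (permutation p = 0.00554, adjusted p = 0.0554). Without sedentary hearts 2 and 5, the farthest from the median score, r was 0.515, so the strength of the pooled relation rests in part on them. With group means subtracted, r over the 10 hearts was 0.969. The 5 hearts of 1 group are too few for a correlation, but among the training hearts Fgf12 was highest in heart 3, which had the highest score, and lowest in hearts 5 and 2, which had the lowest scores. Fgf12 passed an adjusted p of 0.05 for Pearson's r only, and the other 9 genes passed it for neither coefficient. For Fgf13, r was −0.00038, and Fgf7 (r = 0.779), Fgf10 (0.719), Fgfr2 (0.659), Fgfr1 (0.637) and Fgf1 (−0.690) each had an adjusted permutation p of 0.0603 for Pearson's r. These pooled r also hold the difference between the groups. Once group means were subtracted, r was 0.595 for Fgf7, 0.738 for Fgf10, 0.384 for Fgfr2, 0.346 for Fgfr1 and −0.529 for Fgf1.

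**Figure D4:**
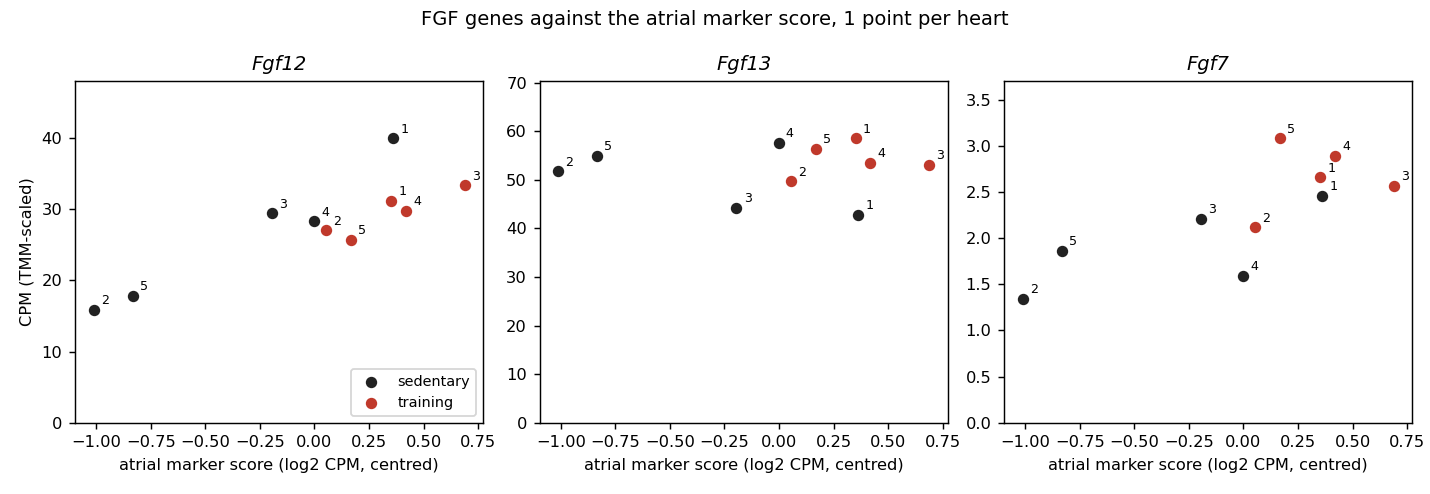
Level of Fgf12, Fgf13 and Fgf7 in TMM-scaled CPM against the atrial marker score (mean of centred log2 CPM of 7 atrial genes), 1 point per heart with its mouse number, training hearts red and sedentary hearts black. Fgf12 is lowest in sedentary hearts 2 and 5, which have the lowest scores, whereas the correlation for Fgf13 is −0.00038.

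Apart from sedentary heart 1, every sedentary heart had a lower atrial score than every training heart. A fit with the score as a covariate therefore cannot fully tell a group difference from a difference in atrial genes. With the score as a covariate in the edgeR fit, the value of Fgf12 turned to −0.36 (SE 0.078, adjusted p = 0.0921, 0.712% of all genes called). Fgf10 turned to −0.19 and Fgf2 to −0.0096, and neither passed the threshold. The log2 fold change was smaller for Fgf7 (0.24 in place of 0.48), Fgfr2 (0.35 in place of 0.59) and Fgfr1 (0.12 in place of 0.18), with adjusted p of 0.674, 0.628 and 0.578 in this fit. Leaving out sedentary hearts 2 and 5 together gave −0.14 for Fgf12, 0.35 for Fgf7, 0.16 for Fgfr1 and 0.48 for Fgfr2, none of them called. Fibroblast genes were measured beside them, since fibroblasts express Fgf7, Fgf10 and Fgfr1. The 8 fibroblast genes summed to 1475 to 1826 CPM in training and 1282 to 1605 CPM in sedentary hearts, and Pdgfra and Lum were the 2 that passed as higher. Pdgfra lost its call without any 1 of training hearts 3, 4 and 5 or sedentary hearts 2, 3 and 4 (adjusted p from 0.108 to 0.141), and Lum without any single heart but training heart 2 or sedentary heart 1 (0.105 to 0.197). With the atrial score as a covariate no fibroblast gene passed. The part of either cell type in the FGF values was not tested.

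Most of the other FGF family genes had few or no reads in these hearts. Of 27 family genes, 22 coding for ligands or intracellular FGFs and 5 for receptors, 16 were tested. The 10 other ligand genes that were not tested had at most 6 reads in any heart. The tested genes beyond the 10 were Fgfrl1 (10.3 TPM), a receptor without a kinase domain, Fgfr3 (3.70 TPM), Fgf18 (3.155 TPM), Fgf11 (1.555 TPM) and Fgf14 (0.39 TPM), 2 further intracellular FGFs, and Fgf6 (0.215 TPM). None of these 6 passed the FDR threshold. Their log2 fold changes ran from −0.35 for Fgf6 (SE 0.25, adjusted p = 0.477) to 0.32 for Fgf14 (SE 0.18, adjusted p = 0.361) in the edgeR test.

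Genes on which FGF ligands and receptors depend at the cell surface were largely not called. Over all genes tested, 2.75% rose and 4.26% fell. Of 10 tested carriers of heparan sulfate, the polysaccharide that FGFs need to bind their receptors, 1 rose and none fell, with a list median of −0.0017. It was Gpc3, a glypican, at 19.8 ± 3.17 CPM in training and 14.5 ± 2.24 CPM in sedentary hearts (SD, n = 5 each). The fitted log2 change was 0.46 (SE 0.12, adjusted p = 0.0498, edgeR). Of 16 tested enzymes of heparan sulfate synthesis and trimming, 1 rose and none fell, with a median of 0.017. It was Sulf1, which removes sulfate groups from heparan sulfate outside the cell, at 51.4 ± 3.95 CPM against 42.7 ± 3.76 CPM (SD, n = 5 each). On the log2 scale it rose by 0.27 (SE 0.065, adjusted p = 0.0433, edgeR). Sulf1 lost its call without training heart 3 (adjusted p = 0.103) and Gpc3 without training heart 3 or 4 or sedentary heart 2, 3 or 5 (0.101 to 0.119). Both lost it with the atrial score as a covariate (0.473 and 0.525).

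In the cascade behind the receptor, 1 of 19 tested adaptor and RAS-ERK genes rose and none fell, beside 2.75% of all genes that rose. The list median was 0.059. Gab1, the docking protein that links FRS2 to phosphatidylinositol kinase and SHP2, was at 65.2 ± 4.52 CPM in training and 55.6 ± 3.75 CPM in sedentary hearts (SD, n = 5 each). Every training heart (60.7 to 72.6 CPM) lay above every sedentary heart (49.7 to 59.6 CPM). The log2 fold change of Gab1 was 0.23 (SE 0.057, adjusted p = 0.0448, edgeR), with an adjusted p of 0.101 without training heart 4. With the atrial score as a covariate it was 0.34 and still passed (adjusted p = 0.0521).

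Of 13 tested genes listed as feedback inhibitors of the receptor, 3 rose and none fell, beside 2.75% of all genes that rose. The list median was 0.048. Only 1 of the 3, Dusp4, is an inhibitor, a nuclear phosphatase of ERK. Flrt1 and Flrt2 are leucine-rich transmembrane proteins that bind FGFRs and act in cell adhesion and guidance. Dusp4 was at 7.20 ± 1.22 CPM in training and 5.09 ± 0.542 CPM in sedentary hearts (SD, n = 5 each; log2 fold change 0.50, adjusted p = 0.0376, edgeR). Flrt1 was at 1.96 to 2.84 CPM in training and 1.17 to 1.74 CPM in sedentary hearts, without overlap (log2 fold change 0.63, adjusted p = 0.0355, edgeR). Flrt2 had a log2 fold change of 0.41 (adjusted p = 0.0957, edgeR) and lost its call without any 1 of training hearts 3, 4 and 5 or sedentary hearts 2, 3, 4 and 5 (adjusted p from 0.147 to 0.215), and on RSEM expected counts (0.107). The classical readouts of FGF signaling were named after their values were seen. Spry1 (log2 fold change −0.22, adjusted p = 0.396), Spry2 (0.048, 0.700), Spry4 (−0.27, 0.230) and Dusp6 (−0.078, 0.694) did not pass in the edgeR test. Spry1 and Spry4 passed as lower without sedentary heart 1, at −0.34 (adjusted p = 0.0568) and −0.36 (0.0538). With the atrial score as a covariate Dusp4, Flrt1 and Flrt2 lost their calls, with adjusted p from 0.195 to 0.734.

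Of 12 transcription factors driven by ERK, 1 rose and none fell, with a median of 0.045, beside 2.75% of all genes that rose. Etv1, an ETS factor induced by FGF signaling that is also expressed in atrial and Purkinje myocytes, was at 12.9 to 16.8 CPM in training and 11.1 to 12.4 CPM in sedentary hearts, without overlap. Its means were 15.4 ± 1.51 CPM and 11.8 ± 0.509 CPM (SD, n = 5 each), a log2 difference of 0.38 (SE 0.069, adjusted p = 0.0161, edgeR). The call held without any single heart and was lost with the atrial score as a covariate (0.29, adjusted p = 0.215). Etv5, the closest relative of Etv1 in the list, was named after its value was seen and did not pass (0.29, SE 0.11, adjusted p = 0.144). It passed in 5 of 22 alternatives, namely DESeq2 (adjusted p = 0.0842), library totals alone (0.0732), the atrial score as a covariate (0.51, 0.0986), and the fits without training heart 5 (0.0834) or without sedentary hearts 2 and 5 (0.46, 0.0589). Without training heart 5 or without sedentary heart 4, 2 of the 12 genes rose.

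Among channels and junction proteins that FGF12 and FGF13 bind or regulate, and related channel subunits, the called genes were lower. Of 13 tested genes none rose and 4 fell, with a median of −0.14, beside 4.26% of all genes that fell. Scn4b, a sodium channel beta subunit, was at 24.0 to 32.6 CPM in training and 34.3 to 49.6 CPM in sedentary hearts, without overlap (log2 fold change −0.65, SE 0.10, adjusted p = 0.00871, edgeR). Scn4a, the sodium channel best known from skeletal muscle, was at 23.0 to 33.3 CPM in training and 36.7 to 48.8 CPM in sedentary hearts, also without overlap (−0.55, SE 0.094, adjusted p = 0.0116, edgeR). Cacna1c, the pore of the L-type calcium channel, fell by 0.21 on the log2 scale (adjusted p = 0.0460, edgeR). Jph2, a junction protein of the transverse tubule, was the fourth (−0.14, adjusted p = 0.0884, edgeR). Cacna1c lost its call without training heart 3 (adjusted p = 0.111) or sedentary heart 3 (0.104). Jph2 lost it without any single heart but training heart 2 or sedentary heart 1 (0.136 to 0.199). Jph2 also lost it without a filter (0.108) and on RSEM expected counts (0.104). With the atrial score as a covariate only Scn4b passed (−0.57, adjusted p = 0.0923), with library totals alone 2 genes rose and 3 fell, and with DESeq2 1 rose and 4 fell. The summed cardiomyocyte genes had a median of 84388 CPM in training and 91035 CPM in sedentary hearts. Actc1 was the 1 of 10 that passed as lower, but all 10 were fitted lower in training hearts (list median −0.11). Of the 13 channel genes, 8 were fitted lower and 5 higher. Without sedentary hearts 2 and 5, which had the lowest atrial levels, 2 of the 13 genes fell. In the same fit none of the heparan sulfate carriers or enzymes rose, 1 adaptor or RAS-ERK gene rose and 1 fell, 1 of the feedback list rose and 2 transcription factors rose. The part of cardiomyocyte content in the channel values was not tested.

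**Figure D5:**
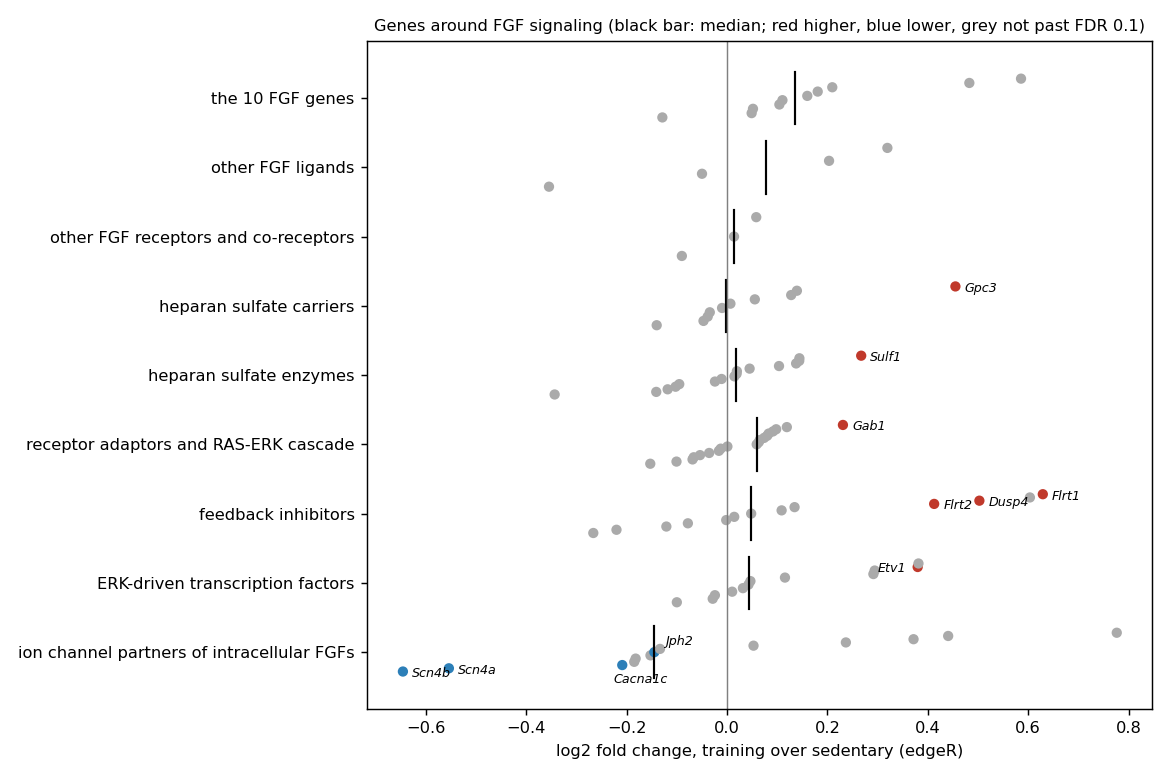
Log2 fold change from edgeR, training over sedentary, of the 10 FGF genes and of 8 lists of genes around FGF signaling, with 1 point per gene and a black bar at each list's median. Genes past an FDR of 0.1 are red where higher and blue where lower and carry their names; all 10 FGF genes are grey, and the 4 blue genes belong to the channel list with its median of −0.14.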

How the data were processed

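RNA of 10 whole hearts was sequenced, 1 directional poly-A library per heart, as single reads in 1 pool. The authors deposited raw counts per gene and strand from STAR 2.7.10a on GRCm39, neither normalized nor filtered. Expected counts, TPM and FPKM from RSEM 1.3.3 were deposited too, of which FPKM were not used. RSEM's strand setting is not given in the sources used here. Groups and mouse numbers came from the labels. The STAR counts left out reads mapped to several places (17.9% to 19.2%), to no gene (4.15% to 4.89%) or ambiguous between genes (0.940% to 0.998%).

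The reverse-strand counts, 94.9% to 95.6% of counts on either strand, were fitted with edgeR 4.0.16 in R 4.3.3 (TMM factors after filterByExpr, quasi-likelihood F test, Benjamini-Hochberg adjustment over 15454 genes) at an FDR below 0.1, the study's threshold. The study itself used DESeq2 at this threshold. Every p called edgeR's is from the quasi-likelihood F test. Standard errors are the absolute log2 fold change over the square root of F. Symbols and positions came from GENCODE M39, which matched 56017 of 56748 identifiers. The FGF genes, all lists and the atrial score were chosen with earlier results of these data known. Named were the 10 FGF genes, up to 4 called genes per pathway list and up to 2 per marker list, with exceptions stated. A gene of the channel list is not reported here. Marker lists covered cardiomyocytes, fibroblasts, endothelium, mural cells, epicardium, atrial myocytes, macrophages, adipocytes, Schwann cells, lymphocytes, erythroid cells and skeletal muscle. Shares were compared by exact permutation tests and correlations by permutation tests with 100000 resamples (scipy 1.17.1).

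Alternatives were DESeq2 1.42.0, edgeR on RSEM expected counts (rounded), on both strands, with DESeq2 size factors, with library totals alone, unfiltered, or with 10 or more counts in each heart, no mitochondrial DNA genes, the mouse number as a block, the atrial score as a covariate, each heart left out, and an FDR below 0.05. Leaving out sedentary hearts 2 and 5 together was chosen after seeing the data. The steps were tested on simulated counts with 200 changed genes. They recovered 87 of 100 genes changed by 0.5 on the log2 scale and 100 of 100 changed by 1. Of the calls at an FDR below 0.1, 11.79% were unchanged genes. The changed genes were of mixed levels, and counts were drawn for each gene independently. Recovery at levels as low as those of Fgf7, Fgf10 and Fgfr2 was not measured apart. Libraries within a group differed by more than counting noise (chi-square per degree of freedom 6.16 to 27.4), so errors are between hearts, and reads carried no molecular identifiers. That hearts are separate animals is taken from the labels.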

Additional observations from a re-analysis of the deposited data

How the results depend on the processing

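Of 220 alternative values of the 10 FGF genes, 197 kept their direction and side of the threshold, 16 kept the direction and passed the threshold, and 7 reversed. Fgf2 reversed to −0.0096 with the atrial score as a covariate and to −0.0015 without sedentary hearts 2 and 5. Fgf9 reversed to −0.0079 without training heart 5 and to −0.0094 without sedentary heart 5, within a range of −0.0094 to 0.12 over the hearts left out. Fgf10 (−0.19) and Fgf12 (−0.36) reversed with the atrial score, and Fgf12 (−0.14) also without sedentary hearts 2 and 5. Dusp6 reversed to 0.087 with the atrial score and to 0.032 without sedentary hearts 2 and 5. The cause was not tested.

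The number of FGF genes called was 0 in the main comparison (7.01% of all genes called), 3 with DESeq2 (9.53%) and 3 with library totals alone (8.85%). It was 3 with the mouse number as a block (7.36%) and 1 with the atrial score (0.712%). When 1 heart was left out it was 0 to 3 (3.29% to 9.58%). All genes called numbered 1084, against 110 with the atrial score, 282 without sedentary hearts 2 and 5, 505 at an FDR below 0.05, and 512 to 1490 when 1 heart was left out. Without training heart 3 or 4 or sedentary heart 2, 3 or 4 the count was 540, 512, 611, 512 and 671. Library totals alone called 1029 genes higher and 339 lower and moved the median of all genes to 0.053.

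Same-numbered mice share only a number: the correlations of their deviations were −0.097, 0.159, 0.075, 0.024 and 0.159, and the labels tie them by nothing else. With the number as a block, 1137 genes (7.36%) were called, among them Fgf7 (adjusted p = 0.0860), Fgfr1 (0.0641) and Fgfr2 (0.0914) in edgeR. For Fgf7, Fgf10 and Fgfr2, mean counts of 80.2, 47.2 and 59.7 reads per heart limit the precision.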

Other observations

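Other cell types were followed by their defining genes. Adipocyte genes had a summed level of 20.7 to 178 CPM in training and 18.1 to 139 CPM in sedentary hearts, with none of 6 tested genes called. Endothelial genes summed to 932 to 1028 CPM in training and 987 to 1049 CPM in sedentary hearts, and Tie1, an endothelial receptor kinase, was the 1 of 8 that passed as lower. It lost its call without any 1 of training hearts 1, 3 and 4 or sedentary hearts 2 to 5 (adjusted p from 0.120 to 0.157, edgeR). Mural cell genes summed to 1245 to 1412 CPM and 1268 to 1459 CPM, with Tagln higher and Rgs5 lower. Tagln lost its call without any 1 of training hearts 3, 4 and 5 or sedentary hearts 2 and 4 (0.103 to 0.145), and Rgs5 without any single heart but training heart 5 or sedentary heart 1 (0.102 to 0.174). With the atrial score as a covariate none of the endothelial or mural cell genes passed. Epicardial genes summed to 84.3 to 125 CPM and 66.7 to 117 CPM, and macrophage genes to 196 to 263 CPM and 216 to 269 CPM, with none called. Schwann cell genes summed to 18.1 to 22.5 CPM and 16.6 to 20.8 CPM, and erythroid genes to 39.1 to 98.8 CPM and 60.3 to 141 CPM, with none called. Lymphocyte genes (0.859 to 4.58 CPM and 0.455 to 7.08 CPM) and skeletal muscle genes (2.45 to 4.11 CPM and 2.03 to 3.58 CPM) were near the floor of detection, with none called. Among the atrial genes, Dkk3 (log2 fold change 0.73, adjusted p = 0.0278) and Sln (0.75, adjusted p = 0.0316) passed as higher in edgeR, and with the atrial score, which contains them, as a covariate both had an adjusted p of 0.118.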
